A study of Mus musculus with 6 samples.

Results

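The genes for the ligands and receptors of the platelet-derived growth factor (PDGF) and vascular endothelial growth factor (VEGF) systems were followed in MC3T3-E1, a line of pre-osteoblasts from the mouse. The set was chosen by name and holds 10 of the 53801 genes in the count tables, namely the PDGF ligand genes Pdgfa, Pdgfb, Pdgfc and Pdgfd, the PDGF receptor genes Pdgfra and Pdgfrb, the VEGF ligand genes Vegfa and Vegfc, and the VEGF receptor genes Flt1 and Kdr. The 3 Control libraries came from cells infected with a lentivirus carrying a scrambled non-silencing RNA, and the 3 Hdac4-knockdown libraries from cells infected with the same vector carrying an Hdac4-shRNA, which the study's text gives as Hdac4-shRNA3. Both groups were stably infected under 5 μg/mL puromycin for 7 days. The study calls the 3 samples of a group biological replicates and describes them as independent RNA samples, but whether they came from separate cultures or infections is not stated. The p-values therefore measure the spread between these samples, which may be technical, and only 1 hairpin was sequenced.

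PDGFs are dimers that pull receptor tyrosine kinases together at the cell surface, and they drive division and migration of mesenchymal cells, osteoblast precursors among them. PDGFRα binds most PDGF chains, whereas PDGFRβ is the main receptor for PDGF-B and PDGF-D. VEGF-A is a product of bone-forming cells that guides blood vessel growth into bone, and its receptors VEGFR1 (Flt1) and VEGFR2 (Kdr) are best known from endothelium. VEGF-C acts mainly on lymphatic vessels through VEGFR3.

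The hairpin and the scrambled control differ by design in their sequences, which are given here.
Hdac4-shRNA3: gcatgaggcacagttgcatga
scrambled control: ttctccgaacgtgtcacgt
The Hdac4-shRNA3 sequence matched 3 mouse transcripts of GENCODE M21, all of Hdac4, at chr1:92029965-92029985 (GRCm38, minus strand) in coding sequence, and the scrambled sequence matched none. Only exact matches over the full length were searched, so partial matches to other transcripts were not examined. Hdac4, a class IIa histone deacetylase, was counted 1243, 1204 and 1136 times in Control and 950, 927 and 887 times in Hdac4-knockdown libraries. It therefore stood at 73.6% of its Control level, and the groups did not overlap, as for 76.8% of all genes tested. Hdac4 shares 3536 of its 15813 exon bases with Gm26720, and its level is uncertain to that extent.

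Each library held between 29096544 and 31651826 counts assigned to genes. Libraries of the same group differed by more than sampling noise, with a chi-square per degree of freedom of 3.23 to 8.36 over genes with at least 10 counts in the pair compared. A gene was called when its edgeR adjusted p-value was below 0.05 and its log2 fold change beyond 0.05. By this rule 75.1% of the 14531 genes tested were called, 38.0% higher and 37.1% lower in Hdac4-knockdown libraries, so a call alone says little about any set of genes. A stricter rule that also asked for a change beyond 2-fold called 27.1% of genes, 16.5% higher and 10.6% lower. Levels are counts per 1000000 counts (CPM) after TMM normalization, as mean ± SD of 3 libraries. Where different genes are set against each other, CPM per kilobase of annotated exon is used. In RNA from a whole culture, fewer cells expressing a gene and less RNA per cell cannot be told apart.

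Of the 10 genes, 9 had enough counts to be tested, and Kdr did not. The tested genes had at least 132 counts in every Control and 64 in every Hdac4-knockdown library, so none of them passed the filter through 1 group alone. Of these 9, 6 were called higher and 3 lower, beside 38.0% and 37.1% of all genes. Vegfa counts among the 3 by a narrow margin that other settings lost. Beyond 2-fold 5 were higher and 1 lower, beside 16.5% and 10.6% of all genes, or 27.1% in either direction. Control and Hdac4-knockdown libraries did not overlap for any of the 9, as for 76.8% of all genes tested. The median log2 fold change of the 9 was 1.13, against 0.01 over all genes tested. Receptors with enough counts were all higher, while ligands went both ways.

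**Figure D1:**
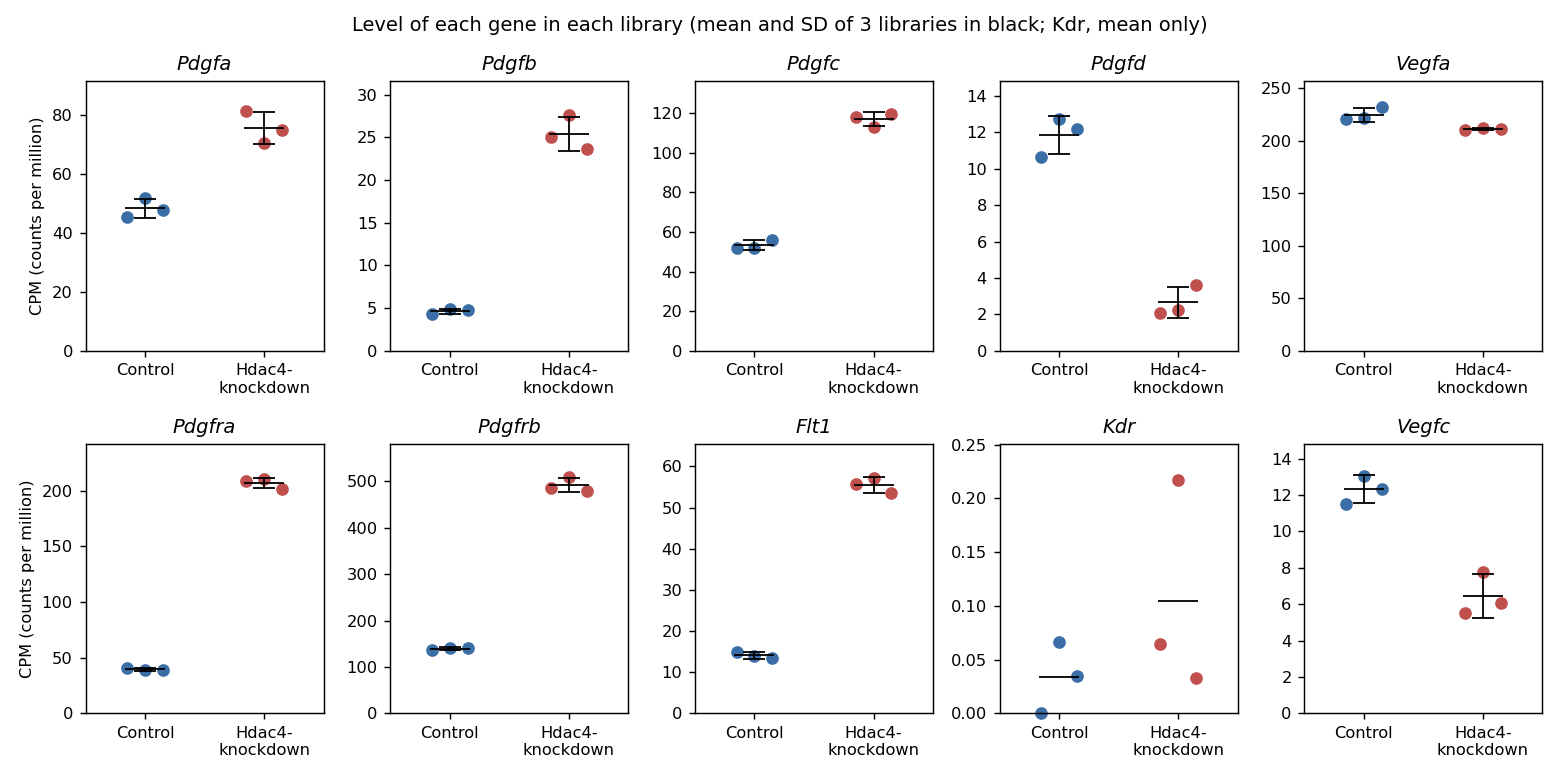
Level of each of the 10 genes in CPM (vertical axes, linear and starting at 0) in the 3 Control (blue) and 3 Hdac4-knockdown (red) libraries, with the mean and SD in black and the mean only for Kdr. The groups are apart in every panel except Kdr, which stays at or below 0.217 CPM in all 6 libraries, and the gap is narrow for Vegfa.

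Both PDGF receptor genes rose. Pdgfra (ENSMUSG00000029231, chr5:75152292-75198215, plus strand), which encodes PDGFRα and marks mesenchymal progenitors, was at 40.9, 38.8 and 38.9 CPM in Control replicates 1 to 3 and at 208, 211 and 202 CPM in Hdac4-knockdown replicates 1 to 3. The lowest Hdac4-knockdown library was thus far above the highest Control library. The mean went from 39.5 ± 1.16 to 207 ± 4.53 CPM, 5.23 times as high, and the log2 fold change was 2.39 (SE 0.0461, edgeR adjusted p = 1.26e-19). Of the 10024 exon bases of Pdgfra, 652 are shared with Gm42802, Gm42803 and Mir7025, and reads there could not be assigned to 1 gene.

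Pdgfrb (ENSMUSG00000024620), which encodes PDGFRβ and is known from pericytes and osteoblast precursors, was at 136, 140 and 142 CPM in Control and at 487, 510 and 480 CPM in Hdac4-knockdown libraries. Every Hdac4-knockdown library lay above 3 times the level of any Control library, and the replicates differed little. The change was 3.53-fold, a log2 fold change of 1.82 (SE 0.0409, edgeR adjusted p = 1.33e-18). Pdgfrb shares no exon base with another annotated gene. The study selected its differentially expressed genes on these same libraries, so the direction of Pdgfra, Pdgfrb and Flt1 here is not independent evidence beside its results.

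Pdgfra made up a larger share of the transcripts of the receptor pair in Hdac4-knockdown libraries. Per kilobase of exon, Pdgfra made up 14.1%, 13.2% and 13.0% of Pdgfra plus Pdgfrb in Control and 18.9%, 18.4% and 18.7% in Hdac4-knockdown libraries. The shares did not overlap, and the difference of the means was 5.25 percentage points (exact permutation test, two-sided, p = 0.1, and a design of 3 against 3 cannot give a lower one). Pdgfrb remained the more abundant transcript in every library. Summed over both genes, the level was 29.4 ± 0.414 CPM per kilobase in Control and 110.5 ± 3.21 CPM per kilobase in Hdac4-knockdown libraries.

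The PDGF ligand genes split, with Pdgfa, Pdgfb and Pdgfc higher and Pdgfd lower. Pdgfb (ENSMUSG00000000489, chr15:79995874-80014977, minus strand), whose product binds both receptors, was at 4.32, 4.88 and 4.74 CPM in Control and at 25.02, 27.6 and 23.6 CPM in Hdac4-knockdown libraries. All Hdac4-knockdown values were above 4 times any Control value. The log2 fold change was 2.45 (SE 0.095, edgeR adjusted p = 8.10e-15), and 90.8% of all genes tested changed by less in size.

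Pdgfc (ENSMUSG00000028019, chr3:81036416-81214040, plus strand) encodes a ligand of PDGFRα that is secreted in a latent form. It was at 52.1, 52.2 and 56.1 CPM in Control and at 118, 113 and 120 CPM in Hdac4-knockdown libraries, and no library of either group came near the other. The log2 fold change was 1.13 (SE 0.0484, edgeR adjusted p = 4.02e-14).

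Pdgfa (ENSMUSG00000025856, chr5:138976014-138997370, minus strand), the gene of the classical PDGFRα ligand PDGF-A, moved least of the ligands that rose. It was at 45.4, 52.0 and 47.8 CPM in Control and at 81.5, 70.6 and 74.9 CPM in Hdac4-knockdown libraries. The groups stayed apart, although the spread within each was wider than for Pdgfc. The log2 fold change was 0.65 (SE 0.0607, edgeR adjusted p = 1.02e-08), and 61.1% of all genes changed by less in size. Pdgfa shares 813 of its 3119 exon bases with 6330403L08Rik, and since the reads carry no strand, its level is uncertain to that extent.

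Pdgfd (ENSMUSG00000032006, chr9:6168584-6378850, plus strand), which encodes a latent ligand of PDGFRβ, went the other way. It was at 10.7, 12.7 and 12.2 CPM in Control and at 2.07, 2.27 and 3.62 CPM in Hdac4-knockdown libraries. Control stood 4.47 times as high as Hdac4-knockdown, a log2 fold change of -2.16 (SE 0.157, edgeR adjusted p = 1.93e-10). Hdac4-knockdown replicate 3 was the highest of its group, and without it the log2 fold change was -2.44.

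**Figure D2:**
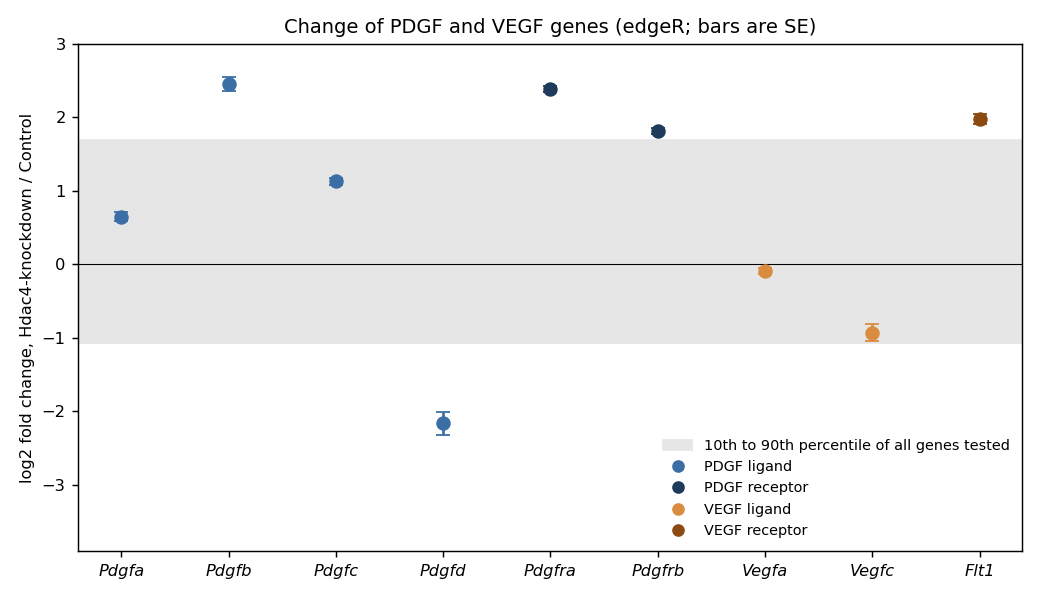
Log2 fold change of the 9 tested genes (vertical axis, Hdac4-knockdown over Control), coloured by role, with SE bars and a grey band from the 10th to the 90th percentile of all 14531 genes. Pdgfb, Pdgfra, Pdgfrb and Flt1 lie above the band, which ends at 1.69, and Pdgfd lies below its lower end of -1.07.

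The mixture of PDGF ligand transcripts differed between the groups. Per kilobase of exon, Pdgfd supplied 11.6%, 12.6% and 12.3% of the summed ligand level in Control and 1.17%, 1.38% and 2.11% in Hdac4-knockdown libraries. The share of Pdgfb was 3.61% ± 0.0495 in Control and 11.3% ± 1.22 in Hdac4-knockdown libraries (SD, n = 3). Pdgfa went from 50.2% ± 1.54 to 44.7% ± 1.68, and Pdgfc from 34.0% ± 1.85 to 42.4% ± 0.878. For each of the 4 ligands the shares of the groups did not overlap (exact permutation test, two-sided, p = 0.1 for each, again the lowest possible). The summed ligand level was 30.9 ± 1.52 CPM per kilobase in Control and 54.2 ± 1.93 CPM per kilobase in Hdac4-knockdown libraries. Ligand transcripts as a whole thus stood at 1.75 times their Control level, and receptor transcripts at 3.76 times theirs.

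**Figure D3:**
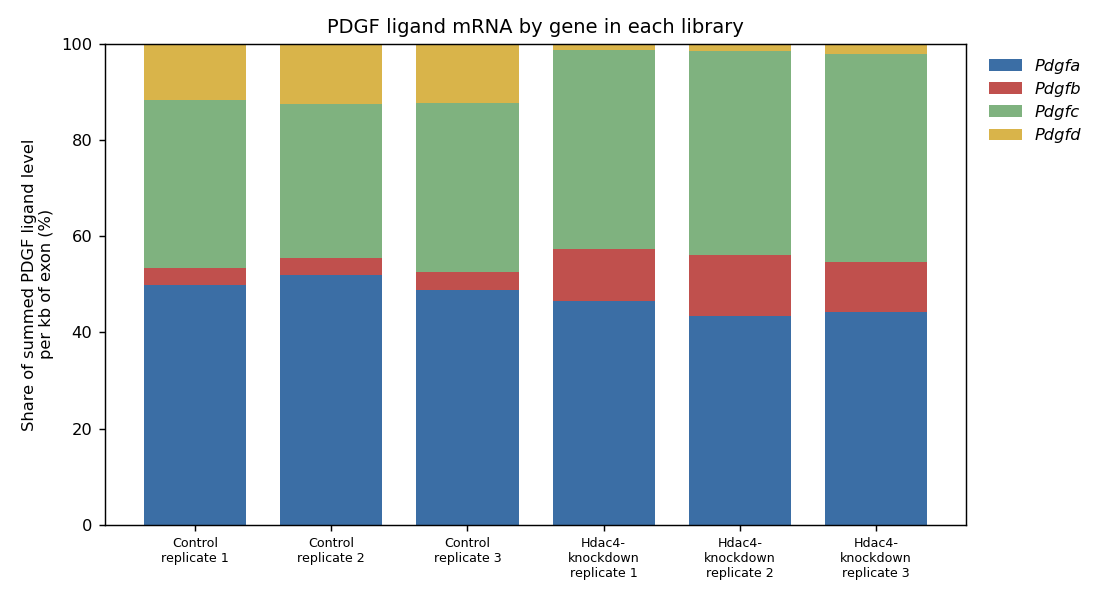
Share of each PDGF ligand gene in the summed PDGF ligand level per kilobase of exon (vertical axis, percent) for each of the 6 libraries. The band of Pdgfd shrinks from about 12.2% on average in Control to 1.55% in Hdac4-knockdown libraries, while that of Pdgfb widens.

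Of the VEGF ligand genes Vegfa and Vegfc, neither rose. Vegfa (ENSMUSG00000023951, chr17:46016993-46032369, minus strand), the main angiogenic ligand of osteoblasts, was at 221, 221 and 232 CPM in Control and at 210, 212 and 211 CPM in Hdac4-knockdown libraries. The groups were separated by less than the range of the Control libraries. Its log2 fold change was -0.09 (SE 0.0396, edgeR adjusted p = 0.0473), which put it at 94.0% of Control and just inside the threshold. That call was lost with DESeq2 size factors (edgeR adjusted p = 0.0507), with library size alone (edgeR adjusted p = 0.458), with upper quartile normalization (edgeR adjusted p = 0.992), and also without Control replicate 3 or Hdac4-knockdown replicate 1 or 3 (edgeR adjusted p between 0.108 and 0.15), so no direction is given for Vegfa. Gene counts do not separate the 13 annotated Vegfa transcripts.

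Vegfc (ENSMUSG00000031520, chr8:54077606-54187096, plus strand), the lymphatic growth factor gene, was at 11.5, 13.1 and 12.3 CPM in Control and at 5.53, 7.79 and 6.05 CPM in Hdac4-knockdown libraries. All 3 Hdac4-knockdown libraries were below all 3 Control libraries. Its log2 fold change was -0.93 (SE 0.118, edgeR adjusted p = 7.13e-07), and -1.09 without Hdac4-knockdown replicate 2, the highest of its group. Vegfa made up 91.3% ± 0.538 of Vegfa plus Vegfc per kilobase in Control and 94.9% ± 0.861 in Hdac4-knockdown libraries (SD, n = 3), without overlap (exact permutation test, two-sided, p = 0.1).

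Among the VEGF receptor genes, Flt1 was expressed and rose, while Kdr was hardly detected. Flt1 (ENSMUSG00000029648, chr5:147561604-147726011, minus strand) encodes VEGFR1, which also exists as a soluble form that traps VEGF-A. It was at 14.9, 14.0 and 13.4 CPM in Control and at 55.6, 57.3 and 53.5 CPM in Hdac4-knockdown libraries. Every Hdac4-knockdown library exceeded every Control library by more than 3 times, with a log2 fold change of 1.98 (SE 0.0638, edgeR adjusted p = 4.28e-16). Counts per gene do not tell the soluble from the membrane form.

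Kdr (ENSMUSG00000062960, chr5:75932827-75978458, minus strand), the gene of the main signalling receptor of VEGF-A in endothelium, had 0, 2 and 1 counts in Control and 2, 7 and 1 counts in Hdac4-knockdown libraries. The groups overlapped, and the sums of 3 and 10 counts were too few to compare at this depth. Flt1 therefore supplied 99.3% or more of Flt1 plus Kdr per kilobase in every library.

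Endothelial genes were examined beside Flt1. Of 15 endothelial markers, 4 were tested, and Vwf (log2 fold change 3.997), Pecam1 (3.45) and Eng (1.27) were called higher. Vwf and Pecam1 had at most 8 and 7 counts in a Control library and passed the filter through the Hdac4-knockdown libraries alone, so the number called is no support for the list, and with at least 10 counts in every library only Eng was called. Their levels were low, with Pecam1 at 0.214 ± 0.0189 CPM in Control and 2.38 ± 0.0949 CPM in Hdac4-knockdown libraries, and Vwf at 0.192 ± 0.0861 and 3.11 ± 0.568 CPM. Summed over all 15, the level was 2.62 to 2.84 CPM in Control and 9.37 to 12.5 CPM in Hdac4-knockdown libraries. Defining markers were at or near 0, with no count of Emcn or Cldn5 in any library, 0 to 1 counts of Cdh5 in Control and 3 to 9 in Hdac4-knockdown libraries, and 0 and 1 to 9 counts of Tie1. The part of these genes in the Flt1 result was not tested.

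Mural cell markers, shared in part with fibroblasts and smooth muscle, did not move with Pdgfrb as a list. Of 12, 6 were tested, and 1 was called higher and 4 lower, beside 38.0% and 37.1% of all genes. The 6 had a median log2 fold change of -1.15. Cspg4, which encodes the pericyte proteoglycan NG2, rose by 3.10, whereas Des (-2.86), Notch3 (-2.59) and Anpep (-1.23) fell. The summed level was 1304 to 1354 CPM in Control and 743 to 789 CPM in Hdac4-knockdown libraries, and Kcnj8 had no count in any library. Macrophage markers were close to absent, with a sum of 1.70 to 3.40 CPM in Control and 3.43 to 3.82 CPM in Hdac4-knockdown libraries. Of 10, 3 were tested and 1 was called higher, namely Csf1r, which passed the filter through the Hdac4-knockdown libraries alone, while Cd68, the most abundant, was at 1.78 ± 0.619 and 2.05 ± 0.292 CPM and was not called.

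The labelled cell type was checked on 12 osteoblast markers, of which 8 were tested. Of these 8, 6 were called higher and 1 lower, beside 38.0% and 37.1% of all genes. Col1a1 (log2 fold change 5.03), Sp7 (4.18), Col1a2 (2.82) and Dmp1 (2.55) rose, and Spp1 fell by 0.62. Sp7 had at most 7 counts in a Control library and also passed the filter through the Hdac4-knockdown libraries alone. Alpl, a defining marker, had at most 3 counts in any library, and Ibsp had none in Control and 4 to 7 counts in Hdac4-knockdown libraries. Of 10 fibroblast markers 8 were tested, with 5 called higher and 2 lower and a median log2 fold change of 0.59. Lum (4.80), Twist1 (4.16) and Dcn (3.16) rose and Fbln1 (-2.40) fell, while Col3a1, the most abundant at 1787 ± 48.3 CPM in Control and 2098 ± 43.5 CPM in Hdac4-knockdown libraries, changed by 0.23. The part of these marker changes in the PDGF receptor results was not tested.

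Ordered by level per kilobase of exon, the 10 genes stood differently in each group. In Control, Vegfa led at 52.4 ± 1.54 CPM per kilobase, followed by Pdgfrb (25.4), Pdgfa (15.5), Pdgfc (10.5), Vegfc (5.03), Pdgfra (3.94), Pdgfd (3.76), Pdgfb (1.12), Flt1 (1.04) and Kdr. Pdgfra and Pdgfd overlapped in that order, as did Pdgfb and Flt1. In Hdac4-knockdown libraries Pdgfrb led at 89.9 ± 2.82 CPM per kilobase, ahead of Vegfa (49.3), Pdgfa (24.3), Pdgfc (23.0), Pdgfra (20.6), Pdgfb (6.10), Flt1 (4.11), Vegfc (2.64), Pdgfd (0.841) and Kdr, and only Pdgfa and Pdgfc overlapped. Pdgfra thus moved up past Vegfc, and Pdgfd fell to the place above Kdr. With the longest transcript as the length, Pdgfra was already above Vegfc in Control, at 5.79 against 5.03 CPM per kilobase, and Flt1 stood above Pdgfb.

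Of the other VEGF genes, Pgf and Vegfd moved most. Pgf, the gene of placental growth factor, a ligand of VEGFR1 alone, fell from 17.9 ± 1.47 to 5.56 ± 0.572 CPM, a log2 fold change of -1.68 (edgeR adjusted p = 1.17e-11). Vegfd, whose product is a relative of VEGF-C, rose from 5.10 ± 0.627 to 14.8 ± 0.878 CPM, a log2 fold change of 1.53 (edgeR adjusted p = 1.02e-10). Vegfb (-0.28) was called lower and the co-receptor gene Nrp2 (0.23) higher, at 316 ± 8.64 and 370 ± 11.1 CPM the most abundant of these genes. The call of Vegfb was lost with upper quartile normalization and without Control replicate 2, Hdac4-knockdown replicate 1 or Hdac4-knockdown replicate 3, with an edgeR adjusted p of up to 0.171. The other co-receptor gene, Nrp1, named after its value was seen, was not called, at 58.4 ± 1.37 and 57.9 ± 1.94 CPM. Flt4, the gene of VEGFR3, had no count in Control and at most 2 in an Hdac4-knockdown library, so the listed receptor of Vegfc and Vegfd was not detectable at this depth beyond these counts.

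Proteases that free the latent ligands were measured as a list of 9, of which 4 were tested. Plau, the gene of urokinase, which activates PDGF-D, fell from 76.0 ± 3.10 to 16.8 ± 1.16 CPM (log2 fold change -2.18, edgeR adjusted p = 6.10e-17). Plat, the gene of tissue plasminogen activator, which activates PDGF-C, rose from 38.3 ± 0.200 to 67.0 ± 2.42 CPM (log2 fold change 0.81, edgeR adjusted p = 2.34e-11). Pdgfd and Plau were thus both lower, and Pdgfc and Plat both higher, in every Hdac4-knockdown library. The groups did not overlap for 76.8% of all genes tested, and a link within these pairs was not tested. Ccbe1, a cofactor of VEGF-C maturation, fell from 28.7 ± 2.83 to 5.57 ± 0.975 CPM (log2 fold change -2.37, edgeR adjusted p = 1.13e-13), and Adamts3, the protease it assists, had no count in any library. Furin, the most abundant at 202 ± 5.41 and 211 ± 2.35 CPM, was not called, but was called higher with library size alone, with upper quartile normalization and with at least 10 counts in every library.

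Downstream components changed less in size. All 26 listed signal transducers of these receptors were tested, 8 called higher, 10 lower and 8 not called, with a median log2 fold change of -0.01. Src, the kinase recruited by active PDGF receptors, fell from 123 ± 2.94 to 53.5 ± 3.84 CPM (log2 fold change -1.20, edgeR adjusted p = 4.85e-14). That was the only change beyond 2-fold in the list, beside 27.1% of all genes tested. Crk (-0.70) and Fyn (-0.54) also fell, Pik3r2 rose by 0.50, and Akt1, the most abundant at 423 ± 44.4 and 363 ± 10.7 CPM, fell by 0.22. Of 12 genes for receptor turnover and phosphatases, 10 were tested, 3 called higher and 5 lower. Acp1 rose by 0.56 and Cblb by 0.38 on the log2 scale, and Ptprj fell by 0.26. Hgs was left out because 2 gene identifiers carry that symbol. Together with the other VEGF genes, the proteases and the related receptor kinases, 46 of 56 listed pathway genes were tested, 15 called higher and 19 lower, beside 38.0% and 37.1% of all genes.

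The receptor kinases most related to PDGFRα and PDGFRβ were near absent. Kit had at most 1 count in any library, and Flt3 had 6 to 14 counts in Control and 1 to 4 in Hdac4-knockdown libraries. Csf1r, the only 1 of the 3 tested, had 3 to 6 counts in Control and 19 to 23 in Hdac4-knockdown libraries, a log2 fold change of 2.20 (edgeR adjusted p = 0.000195). It passed the filter through the Hdac4-knockdown libraries alone, and it was not tested under the stricter filter of 10 counts in each library.

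Immediate early and feedback genes of growth factor signalling, taken as 1 list, went both ways, and the counts do not separate these kinds of gene. Of 18 immediate early and feedback genes, all tested, 11 were called higher and 7 lower, beside 38.0% and 37.1% of all genes. The 18 had a median log2 fold change of 0.22. Fosb (2.13) and Egr2 (2.07) rose, both transcription factor genes at low levels, and Fosb went from 3.16 ± 0.390 to 13.9 ± 0.649 CPM. Dusp1 (-1.88) and Dusp4 (-1.83), which encode phosphatases that switch off MAP kinases, fell, and Dusp4 went from 295 ± 2.84 to 82.9 ± 1.62 CPM.

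Hypoxia genes were measured beside Vegfa, which is a classical target of the hypoxia-inducible factors. Of 18, 17 were tested, with 11 called lower, 4 higher and 2 not called, beside 37.1% lower and 38.0% higher of all genes. The 17 had a median log2 fold change of -0.26. The genes named next were taken by size of change or by level, and none of the 4 higher ones is among them. Egln3, an oxygen sensor that is itself induced by hypoxia, fell from 97.1 ± 2.80 to 11.1 ± 0.646 CPM, a log2 fold change of -3.13 (edgeR adjusted p = 1.31e-19). Slc2a1, the gene of the glucose transporter GLUT1, fell from 209 ± 8.29 to 55.4 ± 3.52 CPM, a log2 fold change of -1.91 (edgeR adjusted p = 2.13e-17). Ndrg1 fell by 1.65 on the log2 scale, and P4ha1, the most abundant at 251 ± 10.7 and 227 ± 6.89 CPM, by 0.14, a call that was lost with library size alone and with upper quartile normalization. Adm had 19 to 33 counts in Control and 0 to 2 in Hdac4-knockdown libraries, and against a floor of 3 counts per library it was at least 8.45-fold lower.

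**Figure D4:**
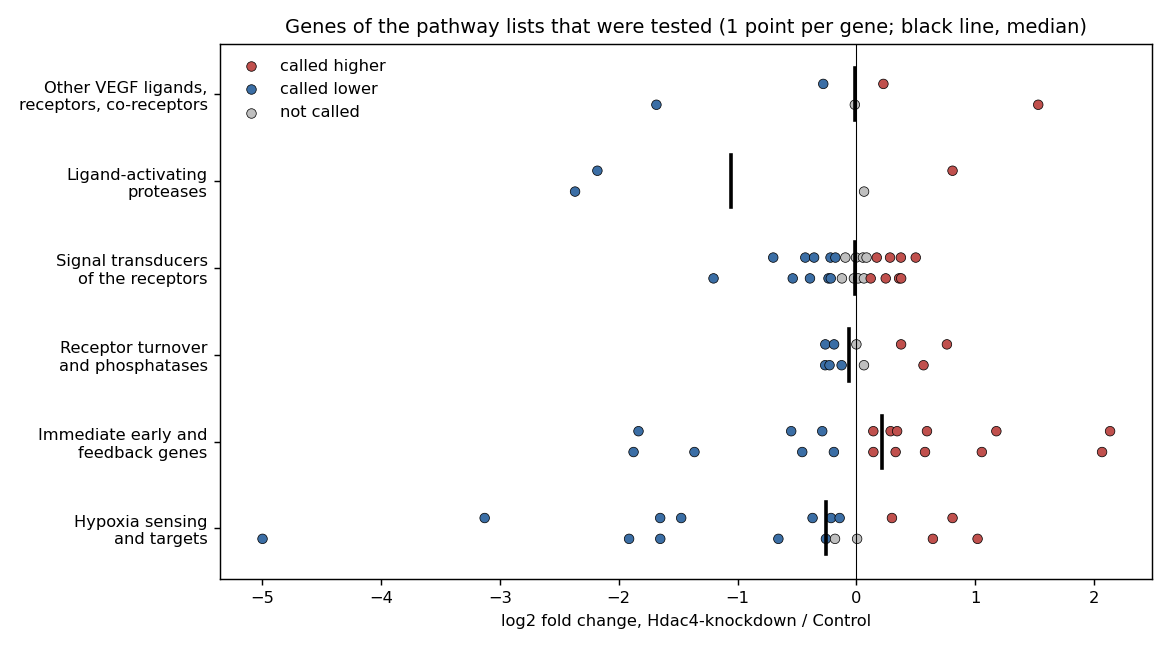
Log2 fold change (horizontal axis) of every tested gene in 6 lists, 1 point per gene, red where called higher, blue where called lower and grey where not called, with the median as a black line. The medians lie between -0.26 and 0.22 in 5 lists, and at -1.06 in the list of ligand-activating proteases, which has only 4 tested genes. The leftmost point is Adm, whose fitted value is no measure of size because its Hdac4-knockdown counts are 0 to 2.

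Pdgfra, Kit and Kdr are neighbours on chromosome 5, with a gap of 735 kb between Pdgfra and Kdr. Of 11 listed neighbours, 7 were tested, and Fip1l1 (log2 fold change 0.29) and Srd5a3 (0.25) were called higher and Clock (-0.17) lower, the last not with upper quartile normalization. None of the 7 was called beyond 2-fold, and Kit and Kdr had almost no counts. Among these listed genes, Pdgfra was therefore the only tested one called beyond 2-fold, as 27.1% of all genes tested were. Other genes of this stretch were not looked up. Flt1 and Pdgfa lie on the same chromosome, 8564 kb apart.

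**Figure D5:**
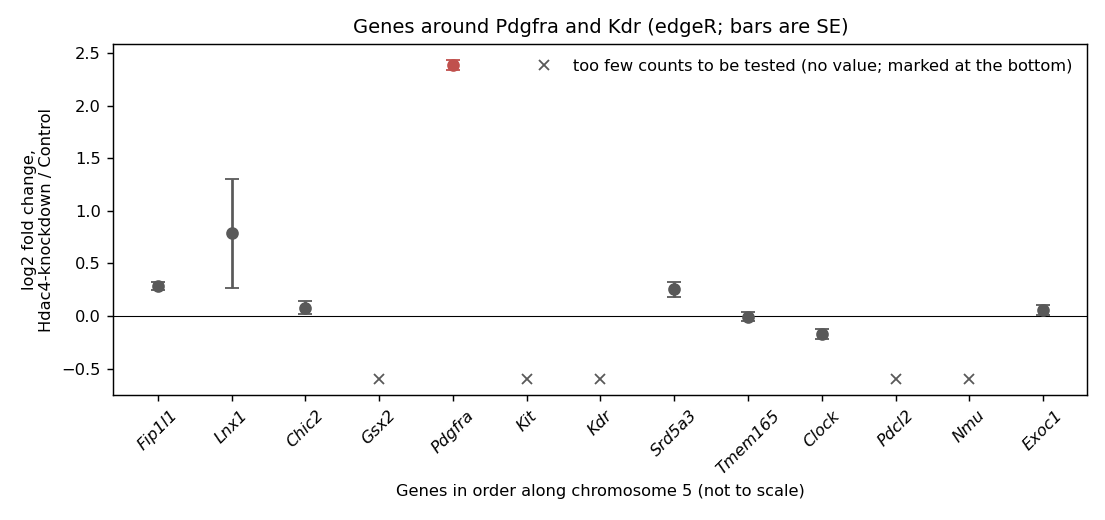
Log2 fold change (vertical axis, SE bars) of the listed genes in order along chromosome 5. Pdgfra is in red, its listed neighbours are in grey, and crosses mark genes with too few counts. Pdgfra stands at 2.39, the called neighbours lie between -0.17 and 0.29, and Lnx1, which was not called, has the widest error.

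RefSeq promoter sequences (GRCm38.p6) were at hand for 8 of the 10 genes and are shown upstream of the start site for a pair that rose strongly, a PDGF ligand gene that rose and the PDGF ligand gene that fell. Capitals mark matches to motifs searched on both strands in the 300 bases from 250 before to 50 after the start.
Pdgfra, chr5:75152001-75152250, plus strand: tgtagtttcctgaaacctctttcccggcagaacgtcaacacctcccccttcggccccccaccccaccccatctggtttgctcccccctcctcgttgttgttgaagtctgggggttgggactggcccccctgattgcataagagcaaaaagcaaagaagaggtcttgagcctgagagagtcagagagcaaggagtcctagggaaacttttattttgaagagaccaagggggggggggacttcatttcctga
Flt1, chr5:147726012-147726261, minus strand: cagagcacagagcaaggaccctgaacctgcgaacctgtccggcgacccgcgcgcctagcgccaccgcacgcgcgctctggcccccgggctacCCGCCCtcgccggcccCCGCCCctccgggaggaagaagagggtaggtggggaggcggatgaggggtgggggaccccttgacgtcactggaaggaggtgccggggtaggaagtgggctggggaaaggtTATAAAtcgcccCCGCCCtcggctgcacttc
Pdgfc, chr3:81036166-81036415, plus strand: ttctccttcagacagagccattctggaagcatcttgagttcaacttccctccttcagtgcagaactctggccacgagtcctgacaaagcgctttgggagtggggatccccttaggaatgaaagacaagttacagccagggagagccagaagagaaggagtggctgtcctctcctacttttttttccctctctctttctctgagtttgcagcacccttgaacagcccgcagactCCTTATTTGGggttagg
Pdgfd, chr9:6168236-6168485, plus strand: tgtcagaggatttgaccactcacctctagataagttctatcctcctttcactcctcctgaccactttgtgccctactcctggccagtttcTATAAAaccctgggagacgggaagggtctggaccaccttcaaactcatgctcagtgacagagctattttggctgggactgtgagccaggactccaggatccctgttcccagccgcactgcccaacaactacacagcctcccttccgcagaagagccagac
The motifs were the GC box GGGCGG, present in 35.7% of 32851 promoters of the same length, the TATA box TATAAA (13.6%), the hypoxia core ACGTG (19.6%), the AP-1 site TGANTCA (7.81%), the RUNX site TGTGGT (16.8%), the MEF2 consensus (3.19%) and the CArG box (1.63%), which serum response factor binds. Flt1 held 3 GC boxes and a TATA box from base -31 to -26, counted back from -1 next to the start. Pdgfc held a CArG box from base -17 to -8, Pdgfd a TATA box from -160 to -155, and Pdgfra none of the motifs. The starts used for Pdgfra and Pdgfd lie upstream of their GENCODE gene starts given above, so these results depend on the start chosen. No window of the 8 genes held the AP-1, RUNX or MEF2 letters, no matches overlapped, and these are descriptions of letters in a window only. The windows of Flt1 and Pdgfra also differed in base composition, with 70.7% and 51.0% G or C, against a median of 52.7% over all promoters.

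For each receptor tested, the genes with the most similar profile over the 6 libraries were found by the root mean square difference of log2 CPM (with 0.1 CPM added), centred per gene, among 12306 genes of at least 1 CPM. Nearest to Pdgfra were Man2b2 (0.0384), Col5a3 (0.0413) and Rap1gap (0.0458). Pdgfrb was most like Ecm1 (0.0233), S1pr1 (0.0425) and B4galnt1 (0.0431), and Flt1 most like Cpeb1 (0.0364), Robo2 (0.0416) and Nupr1 (0.0469). With 2 groups, this likeness rests mainly on a similar fold change.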

How the data were processed

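Poly-A selected RNA of MC3T3-E1 cells was sequenced in 6 libraries, 3 per group, with a kit that does not mark strand. What the authors deposited are unnormalized counts of reads per Ensembl gene. The submitters' processing notes name FastQC, STAR 2.7.3a, HTSeq 0.12.4 and the build mm10, and the annotation release was not given in the sources used here. Summary lines for reads outside genes or not assigned to a single gene (14.3% to 15.0% of all counted lines) were left out.

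GENCODE M21 (GRCm38) covered 53706 of the 53801 gene identifiers and gave symbols, positions and exon lengths. The groups were tested in R 4.3.3 by edgeR 4.0.16 (filterByExpr, TMM, quasi-likelihood F test, Benjamini-Hochberg adjustment). Alternatives used DESeq2 1.42.0, limma-voom 3.58.1, other normalizations and filters, a replicate block, and the omission of each library. The test was also tried on simulated counts with planted changes, among 14393 genes tested. It recovered 84.2% of the 57 planted changes of 1 log2 unit and 100% of the 50 of 2 log2 units, with 5 false calls among 103. The planted changes were few and balanced in direction, with a spread taken from these libraries, whereas 75.1% of genes were called in the real comparison. These rates therefore give no error rate for the real comparison. Exact permutation tests used scipy 1.17.1. Figures were drawn with matplotlib 3.10.9.

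The replicate numbers come from the sample titles, and nothing in the labels pairs Control with Hdac4-knockdown libraries. The members, the gene lists and the rules were chosen with earlier results of these data known. Genes named are all 10 members, Hdac4, and from each list up to 4 called genes with the largest log2 fold change in size plus the most abundant gene, and for each receptor the 3 genes with the most similar profile. A gene that this rule also names is not reported here. The lists were other VEGF genes, ligand-activating proteases, receptor kinases related to the PDGF receptors, signal transducers, receptor turnover and phosphatases, hypoxia genes, immediate early genes, neighbours of Pdgfra and Kdr, and markers of endothelial, mural, macrophage, osteoblast and fibroblast cells.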

Additional observations from a re-analysis of the deposited data

How the results depend on the processing

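Apart from Vegfa, the 8 tested members kept their direction and their call in all 112 repeats with other normalizations, filters and tests, with the replicate block and without single libraries. Vegfa was called lower at a log2 fold change of -0.09, and the call was lost with DESeq2 size factors (-0.0882), library size alone (-0.0329), upper quartile normalization (-0.00049) and at least 10 counts in every library (-0.0519). Without single libraries it ranged from -0.113 to -0.0778, and it was lost without Control replicate 3 or Hdac4-knockdown replicate 1 or 3. Without Hdac4-knockdown replicate 2, Vegfc also passed 2-fold, so members lower beyond 2-fold numbered 1 to 2 over these omissions. With at least 10 counts in every library, 1350 genes were higher beyond 2-fold, against 2397.

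The replicate block moved no member's call, gave 5523 genes higher and 5441 lower against 5521 and 5393, and same-numbered libraries showed correlations of -0.01 to 0.03 in their deviations.

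Of 364 repeated list counts, 343 stayed within 1.5 times. Library size alone and upper quartile each raised the higher proteases to 2 and the higher chromosome 5 neighbours to 4, and upper quartile lowered the other VEGF genes called lower to 1, turnover genes to 3 and neighbours to 0. Without single libraries the other VEGF genes called lower numbered 1 to 2, and 1 without Control replicate 2 or Hdac4-knockdown replicate 1 or 3. With at least 10 counts, the higher calls were 2 for proteases, 0 for related kinases, 1 for endothelial and 0 for macrophage markers, and 1 fibroblast marker was lower. Without a filter, 5 endothelial, 2 mural and 2 macrophage markers were higher and 1 related kinase lower, and DESeq2 gave 5 endothelial and 2 mural markers higher. The cause was not tested beyond the number of genes each setting admits.

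Shares depend on the length used. With the longest transcript, the change in share was -7.52 points for Pdgfd and 6.63 for Pdgfra. With no length correction it was -8.81 for Pdgfd, 7.48 for Pdgfra and 2.23 for Vegfa, against -10.6, 5.25 and 3.68. The Flt1 share changed by 0.09 points and ranged from -0.0814 to 0.273 without single libraries (-0.0814 without Control replicate 2, -0.0023 without Hdac4-knockdown replicate 3), a value that rests on 13 Kdr counts.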
